A study of Mus musculus with 4 samples.

Results

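Group 2 innate lymphoid cells (ILC2s) were followed in single-cell RNA sequencing of aged mouse kidney. The cells were chosen by their transcripts, counted as unique molecular identifiers (UMIs). A member held 500 UMIs or more from 300 genes or more, with no more than 50% of them mitochondrial. It had at least 1 UMI of Ptprc, which encodes CD45, at least 3 UMIs of Gata3, Il1rl1 and Calca together, and at least 1 UMI of Il7r or Rora. It had at most 1 UMI of the CD3 genes Cd3d, Cd3e and Cd3g, and none of Ncr1 (natural killer cells) or of Cpa3 and Mcpt8 (mast cells and basophils). It had at most 9 UMIs of C1qa, C1qb and C1qc (macrophages) and at most 3 of Lrp2 and Slc34a1 (proximal tubule). The rule kept 509 of 76278 cell barcodes (0.667%), with 146 and 115 in BPTES libraries 1 and 2 and 123 and 125 in DMSO libraries 1 and 2 (in that order throughout).

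The kidneys came from male C57BL/6 mice aged 19 months that received BPTES, an inhibitor of glutamine metabolism, or the vehicle DMSO for 1 month. Each group had 2 libraries, and each library mixed 20000 CD45- cells and 9000 CD45+ cells sorted from the same tissue after liberase digestion and red cell lysis. The mixing ratio is set by the sort, so abundance is given as a share of Ptprc-positive barcodes. The dose and the number of mice behind a library are not given in the sources used here, and p-values therefore measure the spread between libraries, which may be technical.

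ILC2s are lymphocytes without antigen receptors that depend on the transcription factors GATA3 and RORα. They live in tissues and respond to the alarmins IL-33, through ST2 (Il1rl1), and IL-25, through IL-17RB, to IL-7 and to neuropeptides, and they make IL-5, IL-13 and amphiregulin. In the kidney they sit mainly around vessels, and they are known for type 2 signals that act on tubular repair and on macrophages. Glutamine feeds the citric acid cycle in many activated lymphocytes.

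The members were checked against markers of 18 cell types. Of the 509 barcodes, 308 stayed under limits on markers of other lineages, and Areg and Il17rb, ILC2 genes that neither the rule nor those limits used, were high there. The other 201 members held transcripts of another lineage, above limits of 3 UMIs for markers of the thick limb, distal tubule and collecting duct or of B cells, and of 5 UMIs for markers of macrophages, monocytes and dendritic cells, of endothelium, of fibroblasts and mural cells, or of neutrophils. Markers of the thick limb, distal tubule and collecting duct were over the limit in 112 members and myeloid or dendritic cell markers in 77. B cell markers were over it in 25 members, endothelial markers in 19, fibroblast or mural markers in 9 and neutrophil markers in 5. These limits were set after the values were seen. The 308 barcodes are called single-lineage members here (members without another lineage in the plots) and the 201 barcodes mixed members.

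Mixed members were unevenly spread. They numbered 36 and 31 with BPTES but 63 and 71 with DMSO, and their median depth was 33564 and 34791 UMIs against 37560 and 39485. Single-lineage members numbered 110 and 84 with BPTES against 60 and 54 with DMSO. Their median depth was close in all 4 libraries, at 14789 and 14426 UMIs with BPTES and 15806 and 14989 UMIs with DMSO. Whether a mixed member was a doublet, a droplet with free RNA or a cell of the other lineage with Gata3 transcripts of its own cannot be told apart here, and no doublet caller was run. The number of mixed barcodes moved with the treatment, so results are given with and without them.

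The defining ILC2 genes separated the 2 kinds of member. The median single-lineage member held 12 and 11 UMIs of Gata3 with BPTES against 12 and 13 with DMSO, and it held 12, 11, 11.5 and 11.5 UMIs of Il1rl1 in the same order. For Il7r the medians were 15.5, 13.5, 15.5 and 15 UMIs. Mixed members had medians of 0 for Il7r in every library and 0, 0, 3 and 0 for Il1rl1, with 7, 5, 4 and 4 UMIs of Gata3, and the name ILC2 is therefore not used for them. All of these genes served the rule, so these levels are a description.

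Of 15 ILC2 markers, 14 had a UMI among the members, and Ptgdr2, which encodes the prostaglandin D2 receptor CRTH2, had none. The summed level of the list was 7667 to 8653 CPM (counts scaled to a common library total) in the single-lineage members of the BPTES libraries and 7208 to 7621 CPM in those of the DMSO libraries. Over all members it was 4386 to 4811 CPM against 1802 to 2290 CPM. The list holds Gata3, Il1rl1, Il7r, Rora and Calca, which served the rule, so these sums describe the members and no difference between the groups is read from them.

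The limits that set the mixed members apart were placed on markers of the other cell types, so the low levels of those genes in single-lineage members restate the choice and are a description. The macrophage and monocyte list stood at 91.7, 118, 658 and 404 CPM over all members and at 45.0, 43.0, 57.3 and 72.6 CPM in the single-lineage ones, and the dendritic cell list went from 69.0, 193, 349 and 575 CPM to at most 3.96 CPM in any library, with Siglech and Cd209a at 0. Aqp2, the water channel of collecting duct principal cells, went from 9549 UMIs over all members to 3. T cell markers, of which the rule limits Cd3d, Cd3e and Cd3g, stood at 12.2, 18.4, 17.2 and 36.9 CPM in the single-lineage members. Of the 7 markers of group 3 innate lymphoid cells 4 had a UMI there, with a summed level of 9.004 and 1.75 CPM with BPTES against 17.2 and 26.4 CPM with DMSO, and their products Il17a, Il17f and Il22 were at 0. Of the 9 natural killer markers 5 had a UMI, at 17.4 and 22.8 CPM against 6.88 and 10.6 CPM. Gzma, Gzmb and Klra8 were at 0, and so was Ncr1, which the rule sets to 0. The groups did not overlap for either sum. Nor did they for the regulatory T cell list (234 and 255 CPM against 272 and 384 CPM), the gamma delta T cell list (32.8 and 41.2 CPM against 45.8 and 52.8 CPM) or the endothelial list (79.7 and 78.1 CPM against 140 and 103 CPM), all lower with BPTES. The fibroblast and mural cell list did not overlap either and was higher with BPTES, at 10.9 and 7.02 CPM against 5.73 and 6.60 CPM. Some of these sums rest on few counts. The fibroblast and mural cell list had 17, 8, 5 and 5 UMIs and the group 3 list 14, 2, 15 and 20. The natural killer list had 27, 26, 6 and 8. The part of the cells of these lists in the values given here was not tested.

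**Figure D1:**
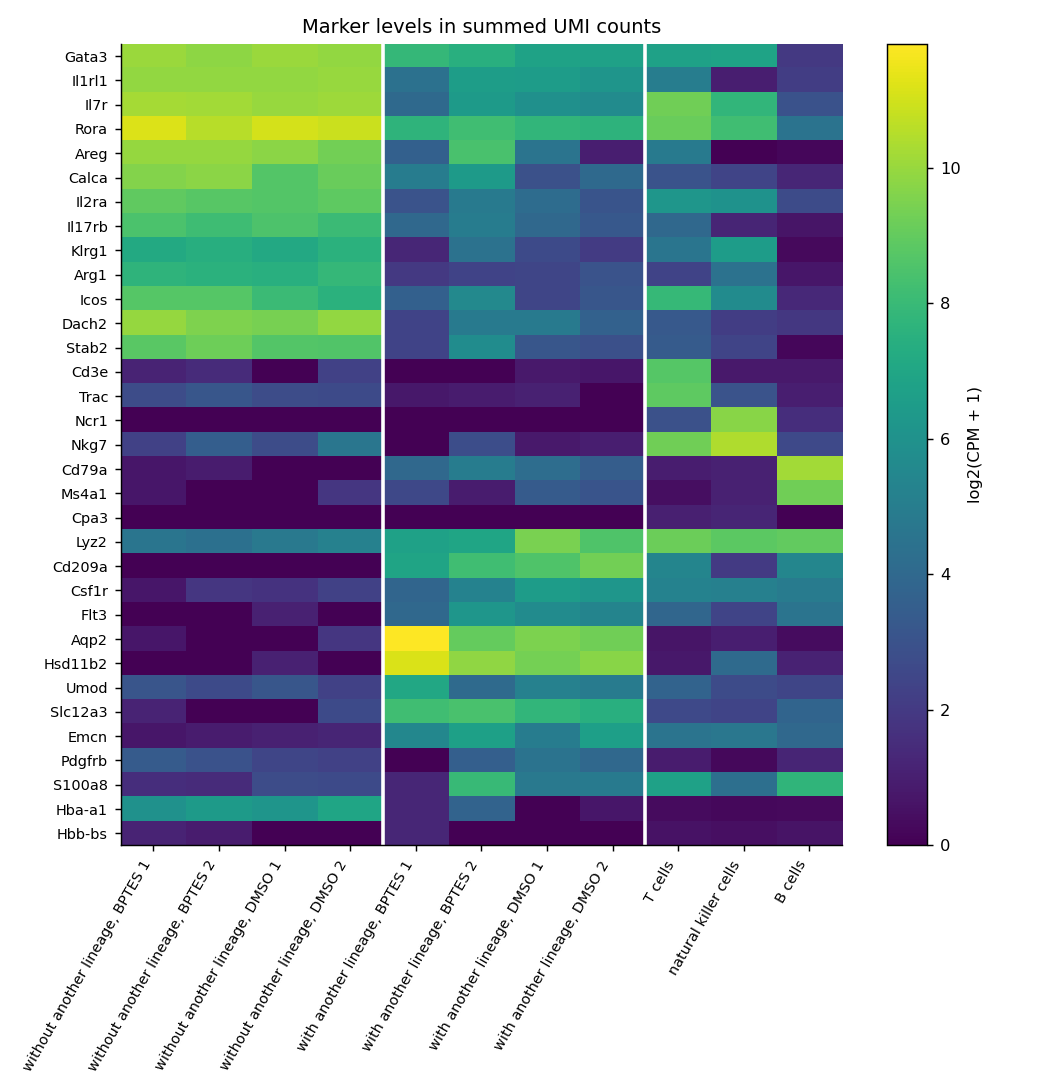
Levels of marker genes, as log2(CPM + 1) of UMI counts summed per library, in single-lineage and in mixed members of each library and, pooled over libraries, in T, natural killer and B cells. The ILC2 genes are high in the 308 single-lineage members of all 4 libraries, and the kidney and dendritic cell genes Aqp2 and Cd209a seen in the 201 mixed members, on which the limits were placed, are near the lowest colour there.

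Few members lay at the threshold. Inside the rule, 32 barcodes had exactly 3 and 43 had exactly 4 UMIs of Gata3, Il1rl1 and Calca together, and outside it 71 barcodes had 2 and 157 had 1. Barcodes with exactly 3 UMIs were more numerous with DMSO, at 12 and 10, than with BPTES, at 4 and 6.

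The rule's members, mixed ones included, were a small share of Ptprc-positive barcodes. They made up 3.24% (exact 95% binomial interval 2.74 to 3.80) and 2.71% (2.24 to 3.24) of these barcodes with BPTES, against 2.49% (2.07 to 2.96) and 2.85% (2.38 to 3.38) with DMSO. The means were 2.97% ± 0.377 (SD, n = 2) and 2.67% ± 0.253 (SD, n = 2), the groups overlapped, and an exact two-sided permutation test gave p = 0.667. With 2 libraries against 2 the smallest p such a test can give is 0.333. The intervals cover counting error only.

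The single-lineage members were a larger share in both BPTES libraries, at 2.44% and 1.98% of Ptprc-positive barcodes against 1.21% and 1.23% in the DMSO libraries. The means were 2.21% ± 0.328 and 1.22% ± 0.0109 (SD, n = 2 each), a ratio of 1.81, with p = 0.333 by the exact two-sided permutation test, the smallest it allows. Leaving out each library in turn gave ratios of 1.62 to 2.00. Mixed members went the other way, at 0.799% and 0.729% against 1.28% and 1.62%. Natural killer cells, counted by a rule of the same kind, were also a larger share in the BPTES libraries, with 2.51% and 3.39% against 1.66% and 0.934%, and T cells were not, with 20.5% and 24.2% against 21.8% and 24.1%.

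The mean share over all members was higher with BPTES in every setting run, and whether the groups overlapped depended on the setting. With a rule sum of 2 or of 4 UMIs, a mitochondrial limit of 25% or all barcodes as the denominator, the groups overlapped as they did under the rule, with p = 0.667 in each exact permutation test. They did not overlap with stricter limits on T cell transcripts (means of 2.65% and 2.26%) or on C1q transcripts (2.92% and 2.46%), but the nearest libraries all but met. With the T cell limit the shares were 2.972% and 2.329% with BPTES against 2.206% and 2.323% with DMSO. With the C1q limit they were 3.17% and 2.66% against 2.31% and 2.62%. With every barcode thinned to 3000 UMIs, shallower ones were left out (550 to 614 Ptprc-positive barcodes and 4 to 10 members a library). The members' shares were then 2.59% and 2.04% with BPTES against 1.07% and 1.23% with DMSO, from 98, 73, 45 and 44 members. Thinning takes deep barcodes with few UMIs of the rule's genes below the rule, and mixed members were deeper and held fewer of them. The part of mixed members in the thinned shares was not tested. A stricter rule on Ptprc, with its own limit on kidney genes, gave 2.46% and 2.33% against 1.80% and 1.89%. As a share of all barcodes that passed the quality limits, single-lineage members averaged 0.779% with BPTES and 0.442% with DMSO. Whether fewer ILC2s, or more of the barcodes that carry another lineage, set the lower single-lineage share in the DMSO libraries cannot be told apart from these counts.

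**Figure D2:**
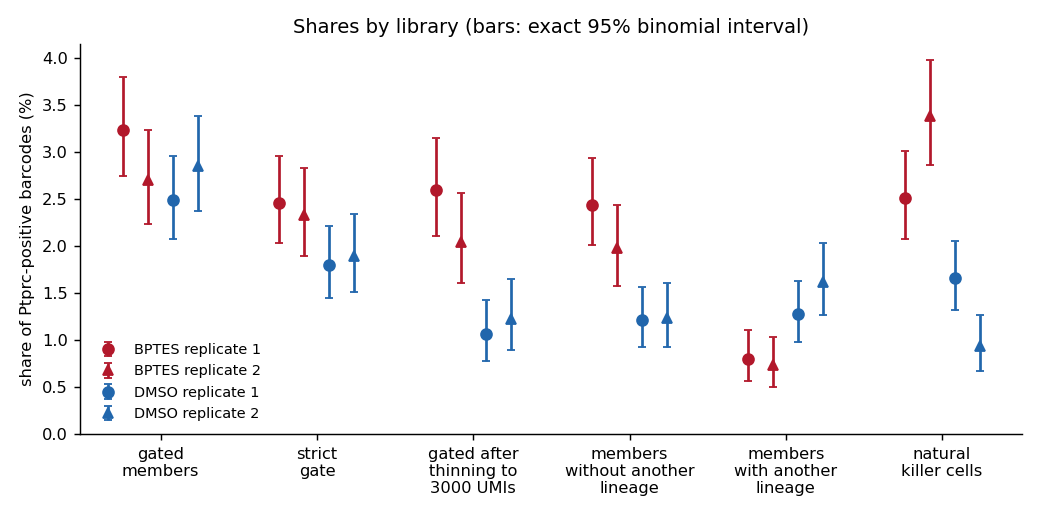
Share of Ptprc-positive barcodes (%) that were members under the rule, under the strict rule and after thinning to 3000 UMIs, single-lineage members, mixed members and natural killer cells, with a point per library and exact 95% binomial intervals. Members under the rule overlap between the groups (2.49% to 3.24%), while the single-lineage members are at 1.98% to 2.44% with BPTES and 1.21% to 1.23% with DMSO.

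Gene expression was compared on UMI counts summed per library. With BPTES, mixed members held 1401759 of the 2956689 and 1176510 of the 2316345 UMIs of all members. With DMSO they held 2666429 of 3538987 and 3102949 of 3860863, so sums over all members are not those of ILC2s alone. Over all 509 members, edgeR's quasi-likelihood test called 0 of 12441 genes (0% called) at an adjusted p of 0.05. An unadjusted p under 0.05 was found for 1957 genes, and 263 genes were called by DESeq2 on the same counts. Without BPTES library 2 edgeR called 886 genes, of which 229 were higher with BPTES, and without BPTES library 1 it called 9. BPTES library 2 held 5300.2 CPM of plasma cell markers over all members, against 93.8 to 183 CPM in the other 3, and the part of these transcripts in the count was not tested.

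The 5 genes of each direction with the smallest p over all members were named by rule, although none passed the threshold (adjusted p = 0.078 for Ear2 and 0.148 for the others, edgeR). Ear2, a ribonuclease of eosinophils and monocytes, had 17 and 17 UMIs with BPTES and 578 and 509 with DMSO (log2 fold change -4.47 ± 0.23 SE). Of these 1121 UMIs, 1 lay in single-lineage members. Mt1 and Mt2 (metallothioneins) and Myof (a membrane repair protein) were lower as well, with 0.211% to 0.352% of their UMIs in single-lineage members. Anxa1, the phospholipase regulator annexin A1, was 1.79 lower on the log2 scale over all members and differed by 0.02 ± 0.25 in the single-lineage ones, so its direction was lost.

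The 5 genes with the smallest p among those higher with BPTES over all members, none of them called, were Rgcc (a cell cycle regulator), Lat (an adaptor of lymphocyte signalling), Tnfsf11 (the cytokine RANKL), Il2ra (the high-affinity subunit of the IL-2 receptor) and Pip5k1b (a lipid kinase), by 1.21 to 1.69 on the log2 scale. At least 82.3% of the UMIs of each lay in single-lineage members. There Il2ra stood at 498 and 435 CPM with BPTES against 409 and 483 CPM with DMSO, and its difference was 0.07 ± 0.14. Rgcc kept 338 and 281 CPM against 173 and 182 CPM, a difference of 0.81 ± 0.15. The larger share of single-lineage members in the BPTES libraries moves with these values, and its part in them was not tested.

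The remaining values are therefore those of the 308 single-lineage members, with 757914 to 1554930 UMIs a library. This set was trimmed after the values were seen, so a gene's difference is given with its standard error and with whether the 2 groups overlap, and no p is printed for it. Of 8365 genes measured in it, 51 passed the edgeR threshold when it was run as an added alternative, 17 higher (0.203%) and 34 lower (0.406%) with BPTES. With each library left out in turn the count was 46 to 83, and 11 of the 51 genes passed in every such run: Alox5, Asb2, Ccr2, Cd74, Cxcl10, Dennd4a, Gimap3, H2-Ab1, Igkc, Kcnd2 and Phlda1. Over the same genes the groups did not overlap for 1701 higher genes (20.3%) and 1623 lower genes (19.4%), and the median log2 difference was -0.00. Under the strict rule on Ptprc and kidney genes only 2 of the 51 genes passed, Cxcl10 and Kcnd2. With DESeq2 over all members 11 of the 51 did.

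The genes that define the cell type had like levels in both groups. Gata3 had 1080 and 922 CPM with BPTES and 1069 and 964 CPM with DMSO, and Il1rl1 had 975 and 988 CPM against 979 and 1052 CPM. Il7r, the IL-7 receptor, stood at 1215 and 1196 CPM against 1031 and 1092 CPM. The groups overlapped for Gata3, Il1rl1 and Rora, and the difference was 0.18 ± 0.12 for Il7r. Calca encodes the neuropeptide CGRP. In the summed counts it was higher with BPTES, at 814 and 888 CPM against 413 and 562 CPM (0.81 ± 0.15). The share of single-lineage members with a Calca UMI overlapped between the groups, at 62.7% and 54.8% against 63.3% and 57.4%. After thinning the shares overlapped too, at 43.3% and 45% against 44% and 44%, so no order is read for Calca. All 5 are genes of the rule and carry no test.

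Id2, the repressor that all innate lymphoid cells need, was not used by the rule and stood at 1034 and 1155 CPM against 1112 and 1107 CPM, so the groups overlapped. Il17rb (the IL-25 receptor), Klrg1 (a receptor of mature ILC2s) and Arg1 (arginase 1) also overlapped, with differences of 0.01 ± 0.17, -0.04 ± 0.17 and -0.05 ± 0.16. Outside the rule, the genes that most set single-lineage members apart from the other Ptprc-positive barcodes included Areg (907 against 9.84 CPM, pooled over libraries), Il17rb (325 against 4.10 CPM), Dach2 (852 against 4.23 CPM) and Vipr2, a receptor for vasoactive intestinal peptide (135 against 2.44 CPM). These genes were ranked on the same barcodes that the rule chose and describe them only.

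Of 19 transcription factors measured, 4 were higher and 6 lower with groups that did not overlap, beside 20.3% and 19.4% of all genes, 9 overlapped, and 1 (Rbpj, lower, as were 0.406% of all genes) was among the 51 genes, with a list median of 0.03. Ikzf3 (Aiolos, a zinc finger factor of lymphocytes) was higher, at 713 and 520.0 CPM against 405 and 348 CPM (0.71 ± 0.16). Bhlhe40, a factor induced by activation, was lower, at 199.8 and 189 CPM against 271 and 422 CPM (-0.83 ± 0.19). Rbpj, the nuclear partner of Notch, had 116 and 123 CPM with BPTES and 177 and 260 CPM with DMSO (-0.87 ± 0.18).

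Bach2, a repressor that keeps lymphocytes from effector fates, was lower too, with 109 and 91.6 CPM against 173 and 144 CPM. Tcf7, which encodes TCF-1, was low in all libraries, at 17.0 and 9.88 CPM against 44.0 and 26.7 CPM (-1.36 ± 0.38). In T cells the same contrast gave 0.30 for Tcf7 and -0.67 for Bhlhe40. No library of one group crossed into the other for any of these 5 genes. They belong to the 4 higher and 6 lower factors counted above, so this restates that count.

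Among 20 cytokine and alarmin receptors, 3 were higher and 4 lower without overlap, beside 20.3% and 19.4% of all genes, and 13 overlapped, with a median of 0.01. Counts over lists leave out the genes of the rule and of the limits. Of these, Icos (higher) and Il18r1 (lower) were among the 51 genes, beside 0.203% and 0.406% of all genes. Icos is a costimulatory receptor whose ligation sustains ILC2 survival and cytokine output. Its gene is at chr1:60977927-61000320 (mm10). It had 426 and 427 CPM in the BPTES libraries and 267 and 188 CPM in the DMSO libraries, a log2 difference of 0.90 ± 0.16. Without DMSO library 2 the difference was 0.68 and no longer past the threshold. An Icos UMI was found in 84.5% and 85.7% of single-lineage members with BPTES and in 68.3% and 57.4% with DMSO.

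Thinned to 3000 UMIs per barcode, these shares were 49.0% and 60% with BPTES against 38.0% and 28.0% with DMSO, so the groups did not overlap there either (6, 4, 10 and 4 shallower members left out). T cells, which also use ICOS, had 36.1%, 35.8%, 36.1% and 34.3% at the same depth. B cells, which should lack it, had at most 0.971% in any library. The log2 difference of Icos was 0.16 ± 0.07 in T cells and 0.42 ± 0.28 in natural killer cells.

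Il18r1 and Il18rap, the 2 chains of the IL-18 receptor, were both lower in the summed counts. Il18r1 had 26.9 and 36.8 CPM with BPTES against 101 and 65.4 CPM with DMSO (-1.41 ± 0.26), but 1 barcode held 70 of the 87 UMIs of DMSO library 1. That barcode alone placed DMSO library 1 above the BPTES libraries. Without DMSO library 1 the difference was -1.07. An Il18r1 UMI was found in 25.4% of single-lineage members with DMSO and in 19.1% with BPTES. Il18rap had 39.3 and 46.7 CPM against 64.9 and 57.4 CPM (-0.52 ± 0.23). Il9r, for IL-9, and Crlf2, for TSLP, overlapped between the groups.

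Of 18 effector products measured, Calca not among them, 4 were higher and 6 lower without overlap, beside 20.3% and 19.4% of all genes, 8 overlapped, none was among the 51 genes, and the median was 0.01. Areg, the growth factor amphiregulin, had 1019 and 1019 CPM with BPTES against 875 and 639 CPM with DMSO (0.43 ± 0.15). The share of barcodes with an Areg UMI ran the other way after thinning, at 35.6% and 28.8% with BPTES against 52.0% and 44.0% with DMSO (55.5%, 51.2%, 65.0% and 53.7% unthinned), so no order is read from either. Thinned T cells held an Areg UMI in at most 4.27% of barcodes and B cells in none.

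The classical type 2 cytokines were sparse. Il13 had 14 and 4 UMIs with BPTES and 35 and 8 with DMSO, in 6, 3, 10 and 3 barcodes, and Il5 had 2, 9, 1 and 4 UMIs. Il9, Il10 and Penk had none in the 308 barcodes, which allows a share of barcodes with a UMI of up to 0.974% (3 counts of 308, over both groups). Il4 was steadier, at 93.0 and 80.8 CPM against 88.1 and 73.4 CPM. These counts were too few to order the groups for Il5 and Il13, and the Il4 values overlapped.

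Other secreted or surface products did separate. Tnfsf11 had 278 and 306 CPM with BPTES against 203 and 211 CPM with DMSO (0.50 ± 0.14), and it went the other way in T cells (-0.56 ± 0.14). Ltb, a subunit of lymphotoxin, was lower, with 607 and 599 CPM against 816 and 952 CPM (-0.55 ± 0.13). Ccl5, a chemokine of effector lymphocytes, had 115 and 52.1 CPM against 262 and 621 CPM, and its difference of -2.36 ± 0.75 had a wide error. Csf1 (macrophage growth factor) and Il2 were somewhat higher with BPTES, by 0.56 ± 0.20 and 0.65 ± 0.31.

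Tnfsf8, the ligand of CD30, had no UMI in 194 single-lineage members with BPTES and 12 and 17 UMIs in 6 and 3 barcodes with DMSO. Against a floor of 3 UMIs over the BPTES group it was at least 16.0-fold lower, a bound that treats each UMI as independent. Cxcl10, an interferon-induced chemokine at chr5:92346638-92348889, had 10 and 4 UMIs against 88 and 100 (-4.44 ± 0.32). It came from few barcodes, 5, 4, 8 and 6 in the 4 libraries, and 1 barcode held 69 of the 88 UMIs in DMSO library 1. Both genes therefore describe a handful of cells.

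**Figure D3:**
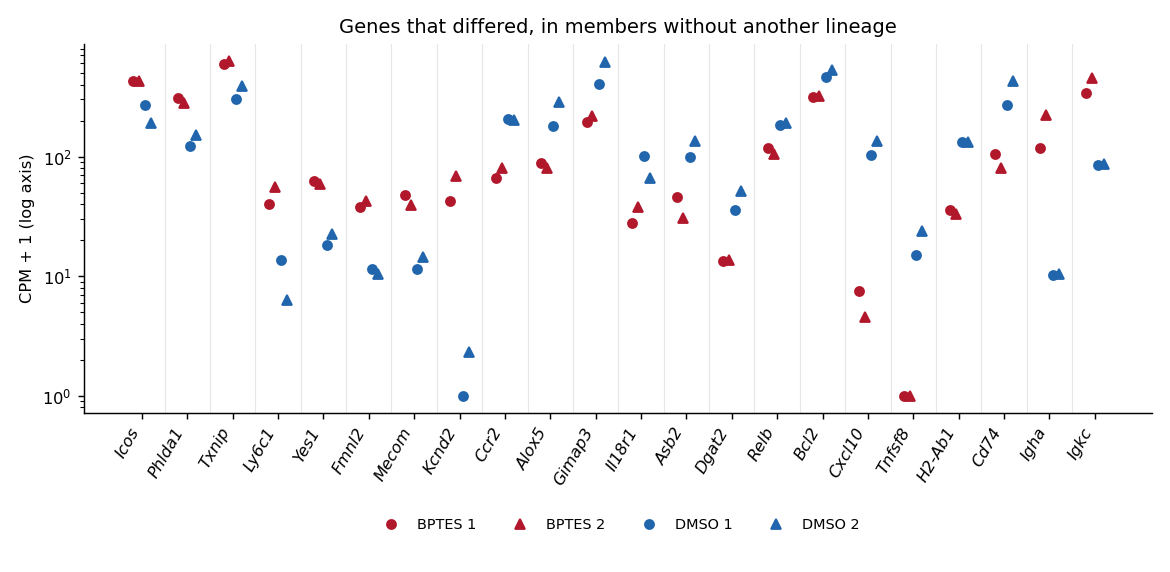
CPM + 1 on a log axis of genes in the single-lineage members, with a point per library. Icos, Phlda1 and Txnip are higher in both BPTES libraries (Icos 426 and 427 against 267 and 188 CPM), and Ccr2, Alox5, Gimap3, H2-Ab1 and Cd74 are lower (Ccr2 64.9 and 79.0 against 206 and 200 CPM).

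Genes outside the lists were among those that differed most between the groups. Phlda1 (chr10:111506286-111508645), a pleckstrin homology-like domain protein, had 310 and 278 CPM with BPTES against 121 and 151 CPM with DMSO (1.12 ± 0.16). It went the other way in T cells (-0.42 ± 0.19). Txnip, the thioredoxin-interacting protein whose transcript follows glucose supply, had 589 and 631 CPM against 303 and 388 CPM (0.82 ± 0.15), and it was also higher in T cells (0.53 ± 0.18). Fkbp5, a glucocorticoid target, had 246 and 258 CPM against 159 and 149 CPM, and Igf1r, the receptor of insulin-like growth factor 1, had 161 and 203 CPM against 99.7 and 93.4 CPM. The BPTES libraries were the higher pair for all 4 genes, beside 20.3% of all genes. The 4 were chosen after their values were seen, so this restates the choice.

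Ly6c1, a surface antigen of subsets of lymphocytes and monocytes, had 39.3 and 54.8 CPM against 12.8 and 5.34 CPM (2.31 ± 0.39). Ly6a, which encodes the stem cell antigen Sca-1, was higher as well, at 866 and 726 CPM against 533 and 515 CPM (0.60 ± 0.14). Yes1 (a Src family kinase), Fmnl2 (a formin that shapes actin) and Mecom (a zinc finger factor) were low in all libraries and higher with BPTES by 1.62 to 1.96.

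Kcnd2, a voltage-gated potassium channel gene at chr6:21215503-21729805, had 63 and 76 UMIs with BPTES against 0 and 1 with DMSO, a ratio of 84.1. Its counting interval of 14.8 to 3346 treats each UMI as independent and covers no spread between barcodes or libraries. A Kcnd2 UMI was found in 4.64% of single-lineage members with BPTES and in 0.877% with DMSO. The UMIs came from 4 and 5 barcodes in the BPTES libraries, the richest holding 27 and 41. Of the 51 genes, 8 had a single barcode with over 20% of the UMIs of the higher group.

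Ccr2 (chr9:124101950-124113557), the receptor of CCL2, had 64.9 and 79.0 CPM with BPTES against 206 and 200 CPM with DMSO, a difference of -1.51 ± 0.17. Both DMSO libraries lay above both BPTES libraries. The difference was -0.15 ± 0.14 in T cells and -0.34 ± 0.17 in natural killer cells.

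Of 18 residence and migration genes, 5 were higher and 5 lower without overlap, beside 20.3% and 19.4% of all genes, with a median of -0.22. Ccr8, a receptor of tissue type 2 lymphocytes, had 174 and 127 CPM against 276 and 211 CPM (-0.69 ± 0.18), and it was lower in T cells too (-0.80). Cxcr6, which binds CXCL16, had 507 and 338 CPM against 271 and 252 CPM (0.69 ± 0.18). S1pr1, the receptor that lets lymphocytes leave tissue, was nearly absent, with 0, 2, 0 and 0 UMIs. The groups did not overlap for Ccr8 or Cxcr6.

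Alox5 (chr6:116410077-116461178), the lipoxygenase that starts leukotriene synthesis, had 87.8 and 79.0 CPM against 180 and 286 CPM (-1.47 ± 0.21), and in T cells its difference was 0.36 ± 0.37. Dgat2 and Dgat1, which make triglyceride, had 12.4 and 12.6 CPM against 34.8 and 50.7 CPM and 85.2 and 53.9 CPM against 114 and 124 CPM. Over the 15 genes of the lipid list 3 were higher and 4 lower without overlap, close to the 20.3% and 19.4% of all genes, with a median of -0.02. Cysltr1, the receptor for cysteinyl leukotrienes, was higher with BPTES, at 302 and 299 CPM against 219 and 187 CPM (0.56 ± 0.15).

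Among 14 receptors for neural and lipid signals, 4 were higher and 5 lower without overlap, beside 20.3% and 19.4% of all genes, with a median of -0.21. Ramp3, which pairs with the calcitonin-receptor-like receptor, had 47.8 and 25.1 CPM against 70.7 and 89.4 CPM (-1.08 ± 0.28). Vipr2 had 136 and 110 CPM against 162 and 154 CPM, and Nmur1, the neuromedin U receptor, had 31.4 and 24.3 CPM against 39.4 and 33.4 CPM. All 3 were lower in both BPTES libraries in the summed counts, while Cysltr1 is among the higher genes of this list. An Nmur1 UMI was found in 27.3% and 28.6% of single-lineage members with BPTES against 36.7% and 35.2% with DMSO. After thinning these shares overlapped, at 9.62% and 7.5% against 14% and 2%, so no order is read for Nmur1.

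Gimap3, a GTPase of lymphocyte survival, had 195 and 219 CPM against 402 and 622 CPM (-1.30 ± 0.19, with 0.04 ± 0.07 in T cells). Bcl2, the inhibitor of apoptosis, had 312 and 319 CPM against 461 and 533 CPM (-0.66 ± 0.14, with -0.06 in T cells), but its call was lost with any 1 library left out. Asb2, a ubiquitin ligase subunit, had 45.2 and 29.6 CPM against 98.5 and 133 CPM (-1.59 ± 0.24). Each DMSO library lay above both BPTES libraries for these 3 genes, which were chosen after their values were seen.

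Of 19 genes of the NF-kB and activation list, 10 were lower without overlap, beside 19.4% of all genes, 9 overlapped and 2, Relb and Tnfsf8, were among the 51 genes (0.406% of all genes were called lower), with a median of -0.14 beside -0.33 for the same list in T cells. Relb, a subunit of the noncanonical pathway, had 117 and 104 CPM against 183 and 191 CPM (-0.75 ± 0.15), and in T cells it was lower by a like amount (-0.70 ± 0.07). Tnfrsf9, the receptor 4-1BB, which is not on that list, had 9.17 and 5.39 CPM against 22.0 and 50.7 CPM, and Nfkb2 had 51.1 and 38.6 CPM against 74.2 and 80.1 CPM. Nfkb1, the precursor of the p50 subunit, overlapped, at 3654 and 2131 CPM against 3603 and 2788 CPM.

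H2-Ab1, a class II chain, had 34.7 and 32.3 CPM against 132 and 131 CPM (-1.96 ± 0.19), and Cd74, the invariant chain, had 105 and 79.0 CPM against 268 and 430 CPM (-1.90 ± 0.24). T cells gave -0.55 ± 0.16 for H2-Ab1 and -0.51 ± 0.13 for Cd74. Lists of other cells that carry class II moved the same way in the single-lineage members. The rule or the limits capped the genes of these lists, so their sums are a description. They rest on 70, 49, 50 and 55 UMIs for macrophages and 16, 10, 18 and 19 for B cells. For dendritic cells the UMIs were 2, 1, 3 and 3. The macrophage list stood at 43.0 to 45.0 CPM with BPTES and 57.3 to 72.6 CPM with DMSO, the B cell list at 10.3 and 8.77 CPM against 20.6 and 25.1 CPM, and the dendritic cell list at 1.29 and 0.877 CPM against 3.44 and 3.96 CPM. Their part in H2-Ab1 and Cd74 was not tested, and both genes were chosen after their values were seen.

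**Figure D4:**
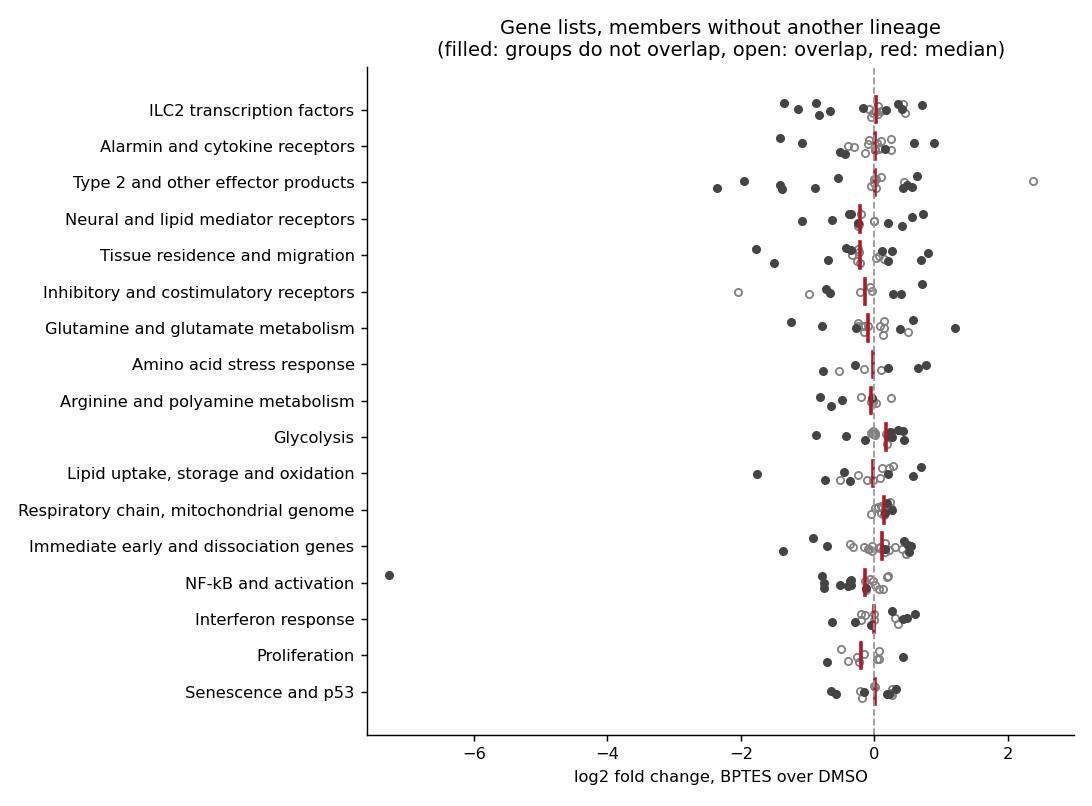
Log2 difference, BPTES over DMSO, of each measured gene of the fixed lists in the single-lineage members, filled where the groups do not overlap and open where they do, with the list median in red. Lists with under 5 measured genes are not drawn. The NF-kB and activation list has no filled point above 0 (median -0.14), and the glutamine list is spread around -0.10.

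BPTES acts on glutamine use. Glul, glutamine synthetase, had 181 and 213 CPM against 85.8 and 179 CPM (0.59 ± 0.32). Of 17 glutamine genes, 3 were higher and 3 lower without overlap, close to the 20.3% and 19.4% of all genes, and 11 overlapped, with a median of -0.10. Slc38a2, a glutamine carrier induced by amino acid shortage, had 284 and 289 CPM against 190 and 248 CPM (0.39 ± 0.16), and Slc7a5, a carrier of large amino acids, had 19.0 and 21.6 CPM against 10.4 and 6.67 CPM. Got1, the cytosolic aspartate transaminase, was lower, at 11.8 and 8.98 CPM against 33.6 and 16.0 CPM. None of the list was among the 51 genes.

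Of 8 measured genes of the amino acid stress response, 3 were higher and 2 lower without overlap, beside 20.3% and 19.4% of all genes, with a median of -0.03. Atf4, its main transcription factor, had 109 and 95.2 CPM against 112 and 139 CPM, Asns had 1 UMI in all, and Trib3, Chac1 and Fgf21 had none. Ddit4, an inhibitor of mTORC1, was higher, with 54.4 and 65.6 CPM against 27.8 and 42.7 CPM. Odc1, the first enzyme of polyamine synthesis, was lower, at 221 and 234 CPM against 386 and 323 CPM (-0.64 ± 0.15), as it was in T cells (-0.73).

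Beside 20.3% and 19.4% of all genes, 6 of 17 glycolysis genes were higher and 3 lower without overlap (median 0.18), and of 13 mitochondrially encoded and respiratory genes 3 were higher and none lower (median 0.14). The interferon list had 4 of 14 higher and 3 lower, with a median of -0.00, and the immediate early genes had 5 of 24 higher and 3 lower, with a median of 0.11. No gene of these 4 lists was among the 51 genes. Fos, an immediate early gene, overlapped between the groups, at 1397 and 1232 CPM against 1770.0 and 933 CPM.

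Mki67, a protein of dividing cells, had 1, 0, 98 and 3 UMIs, and all 98 in DMSO library 1 came from 1 barcode, as did all 120 UMIs of Top2a there. Cdkn2a, which encodes p16, had 1 UMI in all, and Cdkn1a, which encodes p21, had 60.9 and 62.0 CPM with BPTES against 32.5 and 111 CPM with DMSO (-0.19 ± 0.58). The groups overlapped for Cdkn1a, and the 13 senescence and p53 genes had a median of 0.02.

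Immunoglobulin transcripts were higher in every lymphoid population of the BPTES libraries that was fitted. All 4 measured genes were higher with BPTES without overlap, beside 20.3% of all genes, and 3 were among the 51 genes, beside 0.203% of all genes called higher, with a median of 2.39 beside 2.67 in T cells. Igha, the heavy chain of IgA, had 117 and 223 CPM against 9.27 and 9.34 CPM (4.15 ± 0.48), spread over 90, 78, 7 and 6 barcodes with at most 7 UMIs in 1. The difference of Igha was 4.13 ± 0.51 in T cells and 3.97 in natural killer cells, and that of Igkc was 2.23 ± 0.18, 2.26 ± 0.14 and 2.17 in the 3 populations. The plasma cell list stood at 173 and 299 CPM with BPTES against 56.2 and 44.9 CPM with DMSO in the single-lineage members. That list itself holds Igha and Jchain, with 427 and 96 UMIs over the BPTES group, of 269 and 341 list UMIs in the 2 libraries. Its level therefore largely repeats the same counts and is no separate sign of plasma cells. The part of plasma cell RNA in the immunoglobulin values was not tested.

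**Figure D5:**
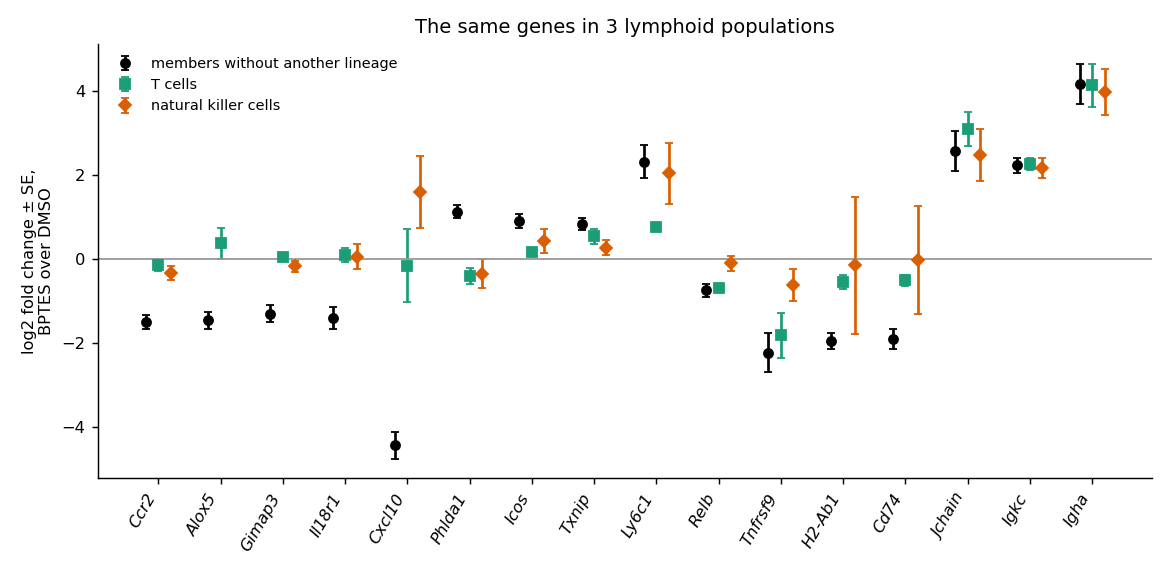
Log2 fold change ± SE, BPTES over DMSO, of the same genes in single-lineage members, T cells and natural killer cells. Igha lies near 4 in all 3 populations, while Phlda1 is at 1.12 in the single-lineage members and -0.42 in T cells, and Ccr2 is at -1.51 against -0.15.

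Whether the response differed from that of other lymphocytes was tested over all members, mixed ones included, in a fit with library as a block. Mixed members held 8347647 of the 12672884 UMIs of all members, so the test is not one of ILC2s alone. Against T cells (4090 barcodes), 2 of 14804 genes (0.0135%) had a different BPTES effect, Ear2 and Rbfox1. Against natural killer cells (380 barcodes, 113, 144, 82 and 41 per library), 2 of 12147 genes (0.0165%) did, Ear2 and Adgre4. Of the 3 genes, Ear2 and Adgre4 are myeloid genes and Rbfox1 is a splicing factor of neurons and muscle, and all were at 0 to 4 UMIs a library in the single-lineage members. The T and natural killer cells were not cleared of other lineages. With single-lineage members in place of all members the counts were 28 against T cells and 16 against natural killer cells. Without DMSO library 2 edgeR gave 0 in both over all members (689 and 651 genes at an unadjusted p under 0.05), and without BPTES library 2 they were 781 and 1048.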

How the data were processed

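Single-cell RNA sequencing libraries (10x Genomics GEM-X 3' chemistry, per the labels) were deposited as raw UMI counts per gene and barcode. The submitters' processing notes name Cell Ranger 8.0.1 and mm10, and the annotation is not given in the sources used here. The deposited counts cover 31054 features, with 249881074 to 297947661 UMIs a library and 17907 to 20091 barcodes, of which 90 to 114 were shared between any pair of libraries. After the quality limits 50605 barcodes were left, 18091 of them Ptprc-positive.

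Counts were summed per library and fitted with edgeR 4.0.16 in R 4.3.3 (TMM, filterByExpr, robust quasi-likelihood, Benjamini-Hochberg over all genes tested, threshold 0.05), and checked on simulated counts. Alternatives were DESeq2 1.42.0, other normalization, filters, rules and left-out libraries. An added tdTomato sequence was left out. CPM of a single gene uses TMM-scaled library totals and CPM of a summed list or of pooled barcodes the plain totals. The 3' counts are not divided by length, so levels are not compared between genes. Gene positions are from GENCODE M21 (GRCm38, the mm10 assembly).

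Genes were named from the rule and the lists: up to 10 called genes of each direction, or else the 5 with the smallest p, called or abundant genes of 19 lists (358 genes), and 10 with the highest ratio to other Ptprc-positive barcodes. Genes of the single-lineage members named beyond this were chosen after their values were seen. Members and lists were chosen with earlier results of these data known. Doublets were treated only by the exclusions of the rule and the limits on other lineages. Some genes are not reported here.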

Additional observations from a re-analysis of the deposited data

Results flagged for a closer look

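The BPTES effect over all members differed from that in T cells for 2 genes, by edgeR's quasi-likelihood test of the interaction with library as a block. Ear2 differed by -4.69 ± 0.22 on the log2 scale (adjusted p = 0.0215), and it was lower in both BPTES libraries. Rbfox1 differed by 4.45 ± 0.27 (adjusted p = 0.0449), with 574, 159, 159 and 72 UMIs in the members of BPTES 1, BPTES 2, DMSO 1 and DMSO 2 and 29, 15, 215 and 67 in T cells.

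Against natural killer cells, edgeR gave -14.33 for Ear2 (adjusted p = 0.0148) and -8.62 for Adgre4 (adjusted p = 0.0440). Natural killer cells held 69, 114, 0 and 0 UMIs of Ear2, so its fitted value is no bound, and 114, 67, 1 and 1 UMIs of Adgre4, against 15, 5, 161 and 62 in the members. In single-lineage members Ear2 had 1 UMI in all, Adgre4 2, 0, 0 and 0 and Rbfox1 0, 3, 4 and 0.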

How the results depend on the processing

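The difference in the members' share kept its sign under every alternative run, with log2 ratios of 0.0200 to 1.02. The count of genes called over all members was 0 and became 1 with a rule sum of 4 UMIs, 7 with the strict rule, 1 with a C1q limit of 2 UMIs, 122 with no filter on low counts, 263 with DESeq2, and 0 to 886 with a library left out. It was 51 in the single-lineage members, an alternative chosen after seeing the data, and 46 to 83 there with a library left out. Against T cells the count of 2 became 28 in single-lineage members, 64 without the filter and 112 with DESeq2, and 0 to 781 with a library left out. Against natural killer cells it became 16, 91 and 44, and 0 to 1048 with a library left out. The causes of these moves were not tested. Of 146 alternative values of the genes named over all members, 110 stayed on the same side of the threshold, 35 passed it and 1 was reversed, Anxa1, at 0.0192 in the single-lineage members. Of the 51 genes, 2 passed with the strict rule, Cxcl10 and Kcnd2, and 11 with DESeq2 over all members. None of the 51 differences was reversed with a library left out. Where 2 groups do not overlap, leaving out a library cannot reverse them.

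The labels give both groups replicate numbers 1 and 2 and do not say that a number pairs libraries. Same-numbered libraries deviated with a correlation of 0.00234. With a replicate block edgeR called 0 genes over all members (1720 at an unadjusted p under 0.05), and the log2 ratio of the shares was 0.156 (exact sign permutation p = 1). The fits against T and natural killer cells hold library as a block already.

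Il5, Il13, Tnfsf8, Cxcl10 and Kcnd2 rest on few barcodes, and 54 to 110 single-lineage members a library limit every value above.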

Other observations

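Single-lineage members held an alpha globin transcript with almost no beta globin. Hba-a1 (chr11:32283511-32284465) had 96, 99, 61 and 94 UMIs in BPTES 1, BPTES 2, DMSO 1 and DMSO 2, in 39, 31, 16 and 16 barcodes, with at most 22 UMIs in 1 barcode. Hba-a2, its near-identical copy, had 10, 19, 6 and 12 UMIs, so the split between the 2 genes is uncertain, and Hbb-bs had 2, 1, 0 and 0. Pooled over libraries, Hba-a1 stood at 80.9 CPM in single-lineage members and at 0.261, 0.192 and 0.222 CPM in T, natural killer and B cells of the same libraries. The groups overlapped for Hba-a1, at 62.9 and 88.9 CPM with BPTES and 70.7 and 125 CPM with DMSO.

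Stab2, known as a scavenger receptor of sinusoidal endothelium, was also a leading gene of these barcodes, at 468 CPM against 4.83 CPM in the other Ptprc-positive barcodes. It had 457 and 604 CPM with BPTES and 415 and 396 CPM with DMSO.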
